A study of Mus musculus with 10 samples.

Results

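Mast cell transcripts were followed in messenger RNA of small-intestinal epithelial cell preparations from mice, through 10 genes for the granule proteases, the receptors and the histamine-forming enzyme of these cells. They were chosen by gene symbol from a table of 24839 genes and assembled transcripts, and all 10 had a row: Mcpt1, Mcpt2, Cpa3, Kit, Fcer1a, Ms4a2, Hdc, Cma1, Tpsab1 and Tpsb2. The samples titled HCD, the high cellulose diet of the study's title, number 5 and are labelled as treated with OVA, the egg allergen ovalbumin. The samples titled NCD number 5 as well and are labelled untreated, and what NCD stands for is not spelled out in the sources used here. The described design ran 60 days of diet for all animals, then 2 injections of 50 µg of OVA with 1 mg of alum, on days 0 and 14, and 5 oral doses of 50 mg of OVA, or saline in unsensitised animals. The sources used here give no strain, age or genotype, and none states whether each library is 1 animal. Library numbers were 11, 12, 13, 19 and 20 for HCD replicates 1 to 5, and 1, 2, 3, 9 and 10 for NCD replicates 1 to 5. Replicates 1 to 3 and replicates 4 and 5 are thus separate runs of numbers. The design text describes 4 groups, while the labels hold 2, and whether the runs of numbers mark separate groups is not known here. As labelled, diet, OVA and library number all change with the title. Their parts in any difference between HCD and NCD cannot be told apart.

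Mast cells are tissue-resident cells of the immune system whose granules hold histamine and serine proteases. IgE sits on their high-affinity receptor, allergen that binds the IgE cross-links the receptor, and the granules are released. In mice, mucosal mast cells lie in the gut epithelium and lamina propria and are known for the chymases Mcpt1 and Mcpt2, while connective tissue mast cells make the chymases Mcpt4 and Cma1, the tryptases Tpsb2 and Tpsab1 and the carboxypeptidase Cpa3. They belong to the tissue response in food allergy, and Mcpt1 in blood is used as a readout of mucosal mast cell activation in mice.

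The chymase genes lie side by side on chromosome 14. Per GENCODE M21 on GRCm38, Mcpt1 is at chr14:56017971-56020384, Mcpt2 at chr14:56042041-56044642, both on the plus strand, and Mcpt9 and Mcpt4, relatives outside the chosen 10, at chr14:56026864-56030495 and chr14:56059629-56062313 on the minus strand. Reads of near copies can be misassigned, so the first 120 coding bases of these 4 genes are given, 5′ to 3′, with capitals for bases that differ from Mcpt1 at the same position.
Mcpt1: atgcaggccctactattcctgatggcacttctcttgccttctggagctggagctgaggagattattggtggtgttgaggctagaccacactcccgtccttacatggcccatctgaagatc
Mcpt2: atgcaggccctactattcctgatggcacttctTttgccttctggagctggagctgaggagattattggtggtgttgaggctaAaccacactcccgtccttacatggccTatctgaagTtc
Mcpt9: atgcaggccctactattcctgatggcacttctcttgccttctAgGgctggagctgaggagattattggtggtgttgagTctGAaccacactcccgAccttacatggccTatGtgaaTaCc
Mcpt4: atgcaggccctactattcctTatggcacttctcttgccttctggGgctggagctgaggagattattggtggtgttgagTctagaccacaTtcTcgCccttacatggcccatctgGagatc
In this stretch Mcpt2 differed from Mcpt1 at 4 positions, Mcpt9 at 10 and Mcpt4 at 7. Over the whole coding sequence Mcpt1 was 81.0% identical to Mcpt2, 83.4% to Mcpt9 and 86.5% to Mcpt4. The longest run of bases shared by the Mcpt1 and Mcpt2 transcripts was 49 bases, and no stretch of 50 bases of Mcpt1 occurred in the transcript of Mcpt2, Mcpt9 or Mcpt4. The sources used here give neither the read length nor the handling of reads that match several genes, so shorter alignments could still have been divided between these genes. The connective tissue chymase Cma1, at chr14:55941451-55944675, was 61.1% identical to Mcpt1 and shared at most 15 bases in a row with it.

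The 250 bases before the RefSeq start (GRCm38.p6) are shown for Mcpt1, for its relative Mcpt4 and for Cpa3. Across libraries Pearson's r of Mcpt4 with Mcpt1, not tested, was 0.79, and 0.51 without NCD replicates 2 and 5. Cpa3 was not shown to vary with Mcpt1. Capitals mark AGATAA, a motif that GATA factors bind, and TGATAA, a second form chosen after the windows had been read. Both strands were searched.
Mcpt1: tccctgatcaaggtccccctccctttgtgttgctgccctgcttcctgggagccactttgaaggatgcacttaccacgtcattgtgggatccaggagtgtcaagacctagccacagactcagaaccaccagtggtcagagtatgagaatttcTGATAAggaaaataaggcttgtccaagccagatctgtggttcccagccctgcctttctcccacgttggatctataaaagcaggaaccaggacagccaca
Mcpt4: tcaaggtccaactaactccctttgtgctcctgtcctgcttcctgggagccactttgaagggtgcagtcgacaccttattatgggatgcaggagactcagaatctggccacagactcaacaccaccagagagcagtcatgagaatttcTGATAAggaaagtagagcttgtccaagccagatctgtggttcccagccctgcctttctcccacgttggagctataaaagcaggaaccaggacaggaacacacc
Cpa3: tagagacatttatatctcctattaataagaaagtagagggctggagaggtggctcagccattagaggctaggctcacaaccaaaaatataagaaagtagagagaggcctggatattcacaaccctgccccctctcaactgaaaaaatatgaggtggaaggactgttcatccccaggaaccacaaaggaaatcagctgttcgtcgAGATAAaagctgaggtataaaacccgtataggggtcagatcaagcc
The Mcpt1 window is chr14:56017714-56017963 on the plus strand, that of Mcpt4 chr14:56062311-56062560 and that of Cpa3 chr3:20242182-20242431, both on the minus strand. TGATAA was in the windows of Mcpt1 and Mcpt4 and in 7.94% of 32851 windows of 250 bases in the table. AGATAA was in those of Cpa3, Fcer1a and Ms4a2 and in 9.99% of all windows, while the windows of Kit, Hdc, Cma1 and Mcpt9 held neither. Across libraries r with Mcpt1 was 0.86 for Mcpt9, beside 0.79 for Mcpt4. A link of these values to promoter sequence was not tested. The Mcpt1 and Mcpt4 windows were 81.5% identical and shared a run of 53 bases, against 45.5% and 8 bases for Mcpt1 and Mcpt9. RefSeq windows were matched for 7 of the 10 genes.

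The preparations were epithelial by their markers, with immune cells in them. Summed FPKM (fragment counts per transcript length, scaled by library total) of 10 epithelial markers was 5628 to 9136 in HCD and 7152 to 8436 in NCD, and the groups overlapped. By gene, 6 of the 9 tested fell and 1, Fabp2, rose (0.68, adjusted p = 0.0456), in the limma test described next. Over all tested genes 19.2% fell and 7.13% rose. Epcam fell by 0.70 and Cdh1, E-cadherin, by 0.93 (adjusted p = 0.00888 and 0.00172), with all HCD libraries below all NCD libraries. Such a separation downward held for 12.9% of all tested genes. With libraries rescaled without mitochondrial genes 4 fell. After quantile normalization 3 fell, and Epcam was not among them (limma adjusted p = 0.125). Lgr5, a stem cell marker, averaged under 1 FPKM. The 8 markers of T cells and intraepithelial lymphocytes summed to 1748 to 3579 FPKM in HCD and 255.8 to 840.7 in NCD, and all 8 rose. All 4 haemoglobin genes listed for red blood cells rose too, by 2.83 to 3.02, and summed to 96.6 to 391 FPKM in HCD and 15.1 to 41.8 in NCD. Collagen genes Col1a1 and Col3a1, of stroma, averaged under 0.1 FPKM in both groups. Of 3 tested genes of stroma and endothelium 2 rose, the filament gene Vim (1.10, adjusted p = 0.00114) and the endothelial and leukocyte gene Pecam1 (0.73, adjusted p = 0.0188). Of 5 macrophage and dendritic cell genes 1 rose, the integrin gene Itgax (1.14, adjusted p = 0.00317). Mitochondrially encoded genes took 14.8% to 29.5% of summed FPKM in HCD and 3.23% to 5.76% in NCD, which lowers all other FPKM in HCD by more. In bulk tissue RNA, fewer mast cells and less RNA per mast cell cannot be told apart.

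Mcpt1 and Mcpt2 dominated, and neither was called different between HCD and NCD. Mcpt1 was at 150.4, 193, 329, 258 and 254 FPKM in HCD replicates 1 to 5, against 137, 545, 234, 223 and 117 FPKM in NCD replicates 1 to 5. NCD replicate 2 was the highest of the 10 libraries, NCD replicate 5 the lowest, and the HCD libraries lay inside the NCD range. The mean was 237 ± 68.3 FPKM in HCD and 251 ± 172 in NCD (SD, n = 5 each). Differences are given as HCD minus NCD in log2(FPKM + 1), tested with limma across the 10321 genes that averaged 1 FPKM or more, with Benjamini-Hochberg adjustment and a threshold of 0.05. That of Mcpt1 was 0.09 ± 0.34 (SE), with a 95% interval from -0.64 to 0.82 and an adjusted p of 0.869. The exact permutation p was 0.849, where 0.00794 is the smallest such a test can give.

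Mcpt2 was at 65.6, 67.0, 168, 105 and 101 FPKM in HCD replicates 1 to 5, against 59.0, 234, 88.6, 89.6 and 42.0 FPKM in NCD replicates 1 to 5. Its highest and lowest libraries were again NCD replicates 2 and 5, and the groups overlapped. The difference was 0.15 ± 0.37 (SE; 95% interval -0.65 to 0.95, limma adjusted p = 0.800). Without NCD replicate 2 the differences were 0.43 for Mcpt1 and 0.51 for Mcpt2, and neither passed in limma (adjusted p = 0.221 and 0.197). Among replicates 1 to 3 alone they were -0.29 and -0.24, and among replicates 4 and 5 alone 0.66 and 0.74, with no call either way. Mcpt1 alone made up 64.9% to 72.2% of the summed FPKM of the 10 genes in HCD and 67.6% to 72.2% in NCD. It was between the 267th and 528th most abundant row of the table in HCD libraries and between the 180th and 809th in NCD libraries.

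**Figure D1:**
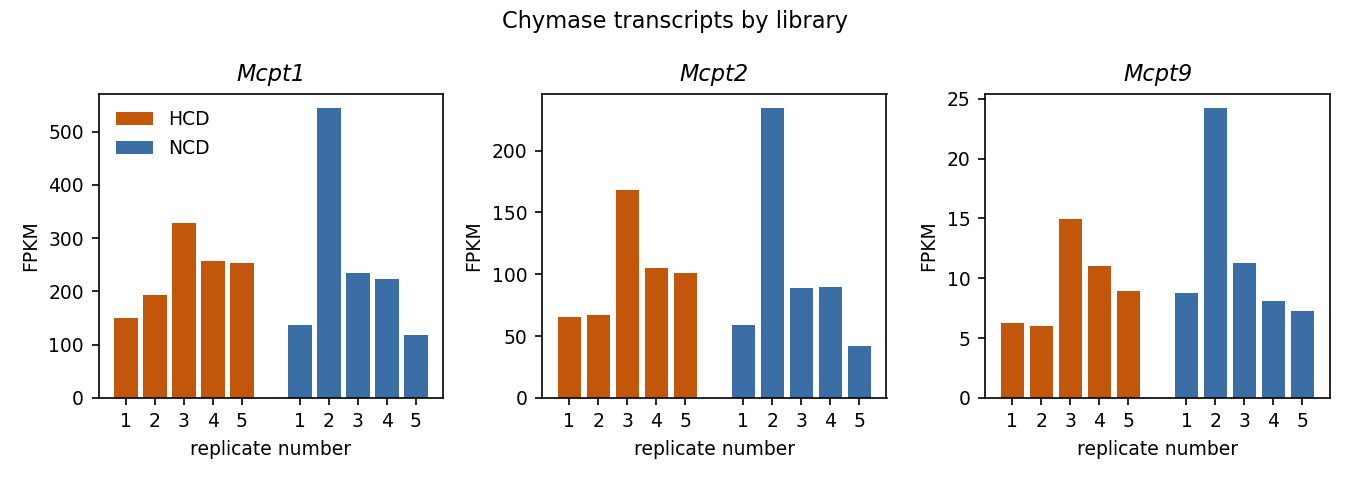
FPKM (bars, linear axis from 0) of Mcpt1, Mcpt2 and the neighbouring Mcpt9 in each library, HCD replicates 1 to 5 left and NCD replicates 1 to 5 right. In all 3 genes NCD replicate 2 is the highest library, at 545, 234 and 24.2 FPKM, and HCD replicate 3 the second highest, at 329, 168 and 14.9 FPKM.

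The IgE receptor was uneven in its chains. Fcer1a, the alpha chain that binds IgE, was at 1.48, 2.55, 4.87, 2.67 and 1.56 FPKM in HCD replicates 1 to 5, against 2.81, 6.31, 4.2, 0.926 and 0.191 FPKM in NCD replicates 1 to 5. The NCD libraries spanned more than the HCD libraries on both sides, and over all 10 libraries the highest was 33.0 times the lowest. The difference was 0.11 ± 0.42 (SE; 95% interval -0.80 to 1.02, limma adjusted p = 0.875). Ms4a2, the beta chain, which mouse cells need to bring the receptor to the surface, had 0.178 FPKM in HCD replicate 2 and 0.104 in HCD replicate 3, against 0.203 in NCD replicate 5 and 0.0482 in NCD replicate 1. It was listed at 0 in the other 6 libraries and stayed under the minimum for testing. Fcer1g, the gamma chain, which other leukocytes use in further receptors, was at 56.2, 18.4, 52.4, 28.6 and 26.6 FPKM in HCD replicates 1 to 5, against 10.8, 17.4, 6.95, 24.6 and 6.09 FPKM in NCD replicates 1 to 5. Fcer1g rose by 1.45 ± 0.36 (SE, limma adjusted p = 0.0110), while HCD replicate 2 stayed below NCD replicate 4.

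Kit, the receptor for stem cell factor, on which mast cells depend, came nearest to a call. It was at 1.37, 1.81, 1.79, 1.32 and 2.74 FPKM in HCD replicates 1 to 5, against 0.801, 1.12, 1.55, 1.13 and 1.01 FPKM in NCD replicates 1 to 5. NCD replicate 3 lay above HCD replicates 1 and 4, and all other NCD libraries lay below every HCD library. The difference was 0.39 ± 0.19 (SE; 95% interval -0.02 to 0.79) and did not pass in limma (adjusted p = 0.142), while the exact permutation p for this single value, unadjusted, was 0.0238. Kit is also made by interstitial cells of Cajal. Ano1 and Etv1, defining markers of the interstitial cells, averaged 0.242 and 0.0447 FPKM in HCD and 0.203 and 0.0138 FPKM in NCD.

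Cpa3, a carboxypeptidase stored in mast cell granules, was at 1.35, 1.76, 1.18, 1.16 and 0.671 FPKM in HCD replicates 1 to 5, against 2.31, 1.91, 1.35, 0.605 and 0.843 FPKM in NCD replicates 1 to 5. The groups overlapped, with both extremes in NCD (difference -0.08 ± 0.23 SE, 95% interval -0.57 to 0.41, limma adjusted p = 0.832). Its difference was 0.02 with each library rescaled without its mitochondrial genes. Hdc, which makes histamine from histidine, was at 1.30, 0.956, 1.88, 1.14 and 1.72 FPKM in HCD replicates 1 to 5, against 0.870, 1.75, 1.12, 0.607 and 0.866 FPKM in NCD replicates 1 to 5. Only NCD replicate 2 among the NCD libraries exceeded the HCD median of 1.30 FPKM (difference 0.24 ± 0.20 SE, 95% interval -0.18 to 0.67, limma adjusted p = 0.390). Hdc is also known from enteroendocrine cells of the stomach. Tph1, the serotonin-forming enzyme of gut enteroendocrine cells and of mast cells, averaged 19.4 FPKM in HCD and 10.1 in NCD and rose by 0.84 (limma adjusted p = 0.00316).

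The tryptases Tpsab1 and Tpsb2 and the chymase Cma1 of connective tissue mast cells were at or near 0. The tryptase Tpsab1, at chr17:25343245-25345562, was listed at 0 in all 10 libraries. Tpsb2, the neighbouring tryptase at chr17:25366305-25369098, had 0.0816 FPKM in HCD replicate 1 and 0.0398 in HCD replicate 2, against 0.0542 in NCD replicate 2 and 0.0341 in NCD replicate 5, and was listed at 0 elsewhere. Cma1 had 0.253 FPKM in HCD replicate 1 and 0.0493 in HCD replicate 2, against 0.134 in NCD replicate 2, with the other 7 libraries listed at 0. No fold is given for these genes. FPKM carry no counts, so whether a listed 0 means no transcript or too few reads was not detectable. Mrgprb2, a receptor of connective tissue mast cells, was listed at 0 in every library. Mcpt4 and Cpa3, named above with the connective tissue set, were above 0 in all 10 libraries. They spanned 0.602 to 8.54 FPKM and 0.605 to 2.31 FPKM.

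Of the 10 genes 6 reached the minimum of 1 FPKM on average, and 0 of these 6 passed in limma in either direction, on a background of 26.3% of all tested genes. In none of the 6 did all HCD libraries lie above or below all NCD libraries, a separation that 4.53% of tested genes showed upward and 12.9% downward. None had an unadjusted limma p under 0.05, and 1 had an exact permutation p under 0.05, which was Kit. The median difference of the 6 was 0.13, beside -0.19 over all tested genes. Intervals for Mcpt1, Mcpt2 and Fcer1a reach at least 0.82 upward and 0.64 downward on the log2 scale, so differences of that size lie inside the intervals. By mean level the order was Mcpt1, Mcpt2, Fcer1a, Kit, Cpa3, Hdc, Ms4a2, Cma1, Tpsb2 and Tpsab1. Mcpt1 exceeded Mcpt2, Mcpt2 exceeded Fcer1a and Hdc exceeded Ms4a2 in 10 of 10 libraries each. The neighbours in between were not separated in this way, with Fcer1a above Kit in 7 of 10 libraries, Kit above Cpa3 in 8 and Cpa3 above Hdc in 6.

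**Figure D2:**
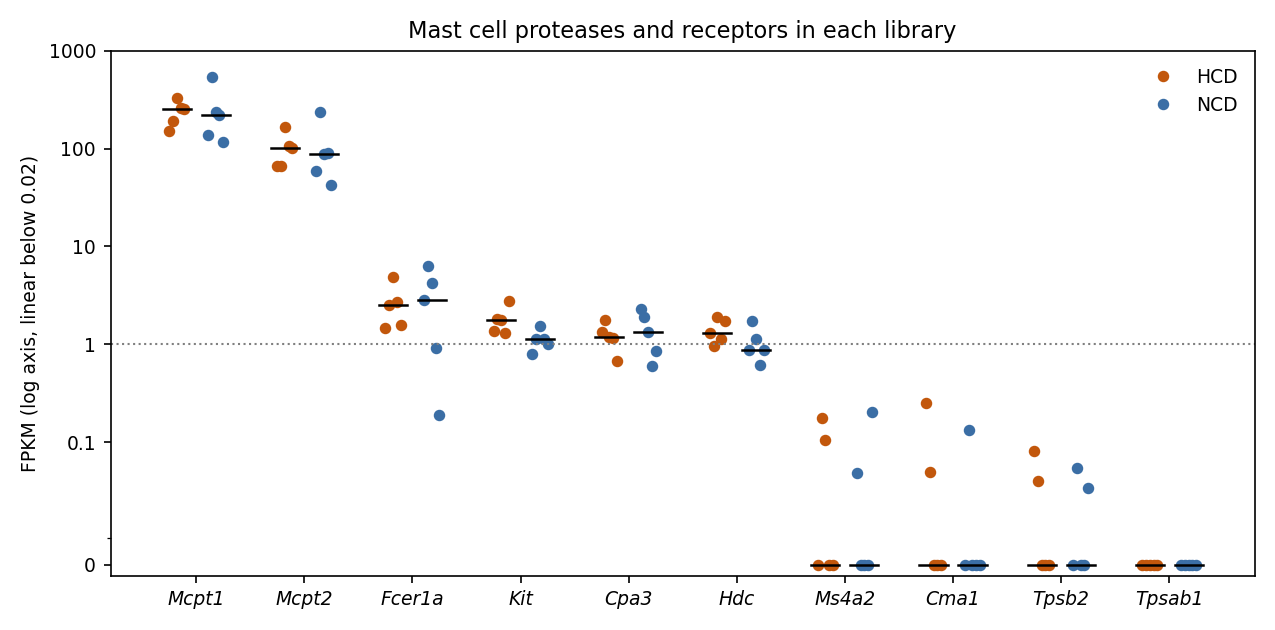
FPKM of the 10 genes in each library (points, symmetric log axis, linear below 0.02), HCD left and NCD right of each gene name, with the median as a bar and the minimum mean for testing of 1 FPKM dotted. Mcpt1 and Mcpt2 stand above 40 FPKM in every library, Fcer1a, Kit, Cpa3 and Hdc lie between 0.191 and 6.31 FPKM, and Ms4a2, Cma1, Tpsb2 and Tpsab1 have a median of 0 in both groups.

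Across libraries Mcpt1 and Mcpt2 varied as a pair. Mcpt2 stood at 34.6% to 51.0% of the Mcpt1 FPKM in HCD and at 35.9% to 43.1% in NCD, while each gene varied over 4.65-fold and 5.58-fold. Pearson's r of log2(FPKM + 1) over the 10 libraries was 0.98 (permutation p = 1e-05, the smallest that 100000 resamples can give, adjusted p = 5e-05 over the 5 pairs of Mcpt1 tested) and Spearman's rho was 0.988 (permutation p = 1e-05, adjusted p = 5e-05). After centring on the group means r was 0.98, within replicates 1 to 3 of both groups 0.97, and without NCD replicates 2 and 5, the libraries farthest from the median of Mcpt1, 0.94.

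For Fcer1a and Mcpt1 r was 0.74 (permutation p = 0.0144, adjusted p = 0.0360) and rho 0.685 (permutation p = 0.0340, adjusted p = 0.0567). Without NCD replicates 2 and 5, the extremes of Mcpt1, r was 0.35 (exact permutation p = 0.388, n = 8). Leaving out extremes of Mcpt1 can itself lower r, so whether the relation rests on those 2 cannot be told. Within replicates 1 to 3 of both groups, which hold NCD replicate 2, r was 0.89 (exact permutation p = 0.0208, n = 6, adjusted p = 0.0521). For Hdc r was 0.65 (permutation p = 0.0387, adjusted p = 0.0644) and rho 0.745 (permutation p = 0.0171, adjusted p = 0.0428), with r = 0.51 without those libraries and 0.80 within replicates 1 to 3. Kit (r = 0.28, permutation p = 0.423, adjusted p = 0.528; rho 0.358, permutation p = 0.312, adjusted p = 0.389) was not shown to vary with Mcpt1. Nor was Cpa3 (r = 0.08, permutation p = 0.840, adjusted p = 0.840; rho -0.0545, permutation p = 0.891, adjusted p = 0.891), whose r was -0.59 without NCD replicates 2 and 5. For Kit that value was 0.57. Libraries share the scaling to their own total, which can move genes together.

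**Figure D3:**
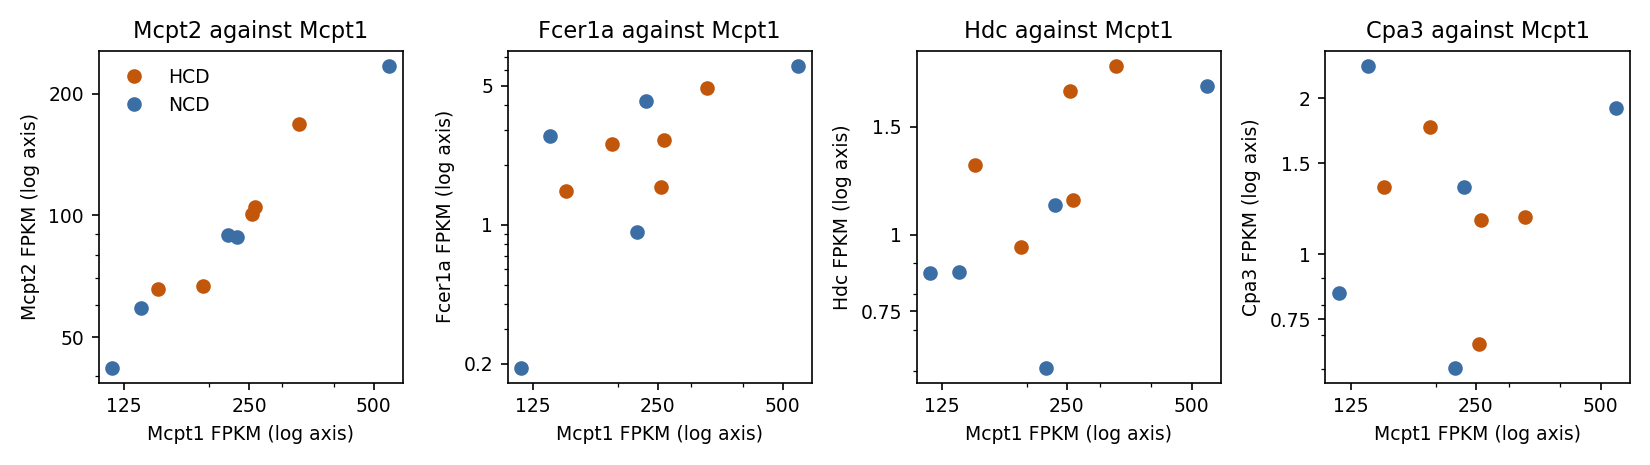
FPKM of Mcpt2, Fcer1a, Hdc and Cpa3 (vertical log axes) against FPKM of Mcpt1 (horizontal log axis), each point 1 library of HCD or NCD. Mcpt2 follows Mcpt1 over the whole range (r = 0.98), the order of Fcer1a and Hdc is looser (r = 0.74 and 0.65), and Cpa3 shows no such order (r = 0.08).

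The tested genes most like Mcpt1 over the 10 libraries, by Pearson's r of log2(FPKM + 1) centred on the group means and given as a description, were Ms4a6b (0.96), Cd34 (0.96), Prkd2 (0.92), Mcpt9 (0.91) and Bnip2 (0.90), out of 10315 genes outside the 10. Between groups Ms4a6b, a gene of the family that also holds Ms4a2, was at 5.22 to 8.88 FPKM in HCD and 0.585 to 5.11 FPKM in NCD and rose by 1.46 (limma adjusted p = 0.00479), and Prkd2, a protein kinase D, rose by 0.52 (adjusted p = 0.0219). Cd34 (0.70, adjusted p = 0.0565) and Bnip2 (0.19, adjusted p = 0.537) did not pass. Cd34 encodes a surface sialomucin of blood progenitors, endothelium and, in mice, mast cells. Mcpt9, a chymase, was at 6.29, 5.98, 14.9, 11 and 8.92 FPKM in HCD replicates 1 to 5, against 8.80, 24.2, 11.2, 8.08 and 7.24 FPKM in NCD replicates 1 to 5, with no call between groups (difference -0.25, limma adjusted p = 0.584). The same measure was 0.89 for Gata2, a transcription factor of mast cells and their precursors, 0.88 for Cma2, a chymase gene, and 0.79 for Mcpt4. Other tested genes of the mast cell lists described below were lower, from 0.75 for Il4ra to -0.33 for Tpsg1. Among them were Srgn (0.36), Gzmb (0.14) and Lyn (-0.08). Uncentred, r was lower for Ms4a6b (0.61), Cd34 (0.76) and Prkd2 (0.56), and was 0.86 for Mcpt9 and 0.88 for Bnip2. Without NCD replicates 2 and 5, uncentred, r was 0.58 for Ms4a6b, 0.70 for Cd34, 0.51 for Prkd2, 0.86 for Bnip2, 0.72 for Mcpt9, 0.63 for Gata2, 0.79 for Cma2 and 0.51 for Mcpt4. The T cell markers, summed, were at 475 FPKM in NCD replicate 2, inside the NCD range of 255.8 to 840.7, and the NCD library highest in T cell markers was another one. Of the macrophage and dendritic cell genes, Lyz2 (34.0 FPKM), Adgre1 (3.25) and Csf1r (2.77) were highest among NCD libraries in replicate 2. Cd68 and Itgax were highest in NCD replicate 4. The part of other leukocytes in the levels of NCD replicate 2 was not tested.

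Around these genes, 6 lists of mast cell function held 64 further genes, of which 34 were tested. There 11 rose and 1 fell, or 32.4% and 2.94%, on a background of 7.13% higher and 19.2% lower over all tested genes. Among other mast cell and basophil proteases 1 of 5 tested genes rose. That was Gzmb, granzyme B, which cytotoxic lymphocytes make in quantity, at 170 ± 58.2 FPKM in HCD and 32.3 ± 14.8 in NCD (SD, n = 5 each; difference 2.40 ± 0.30 SE, limma adjusted p = 1.7e-04). Every HCD library lay above every NCD library, which held for 4.53% of tested genes. Mcpt4 averaged 2.61 FPKM in HCD and 2.74 in NCD (difference 0.24, limma adjusted p = 0.676), Cma2 3.06 FPKM in HCD and 4.01 in NCD (-0.12, adjusted p = 0.868), and Tpsg1, a membrane-anchored tryptase, 10.2 FPKM in HCD and 11 in NCD (-0.14, adjusted p = 0.656). Of the defining proteases of basophils, Prss34 was listed at 0 in all 10 libraries and Mcpt8 in all but HCD replicates 1, 2 and 4.

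Of 12 tested genes of IgE receptor signalling 8 rose and none fell, with a median difference of 0.97 beside -0.19 over all tested genes. Lat2, an adaptor of mast cells and B cells, averaged 8.17 ± 4.13 FPKM in HCD and 1.5 ± 0.883 in NCD (SD, n = 5 each; difference 1.83, limma adjusted p = 0.00144). Fyn, a Src family kinase, averaged 7.74 ± 1.03 FPKM in HCD and 1.91 ± 1.08 in NCD (1.66, adjusted p = 4.7e-04). Lcp2 (1.26), Lat (1.53), Fcer1g (1.45), Inpp5d (1.02), Vav1 (0.92) and Plcg1 (0.61) rose as well. Of these, Lat, Lcp2, Fyn, Plcg1 and Vav1 also act behind the T cell receptor, and all 8 T cell markers rose in the same libraries, by 1.59 to 2.59. The 4 red blood cell genes, Itgax, Vim and Pecam1 were higher in HCD as well. The part of these other cells in this list was not tested. The kinase Lyn (-0.20, adjusted p = 0.432), Syk (0.11) and the adaptor Gab2 (-0.07) did not pass, and Btk stayed under 1 FPKM on average. Plcg2 did not pass either (0.47, limma adjusted p = 0.0932). It passed in limma with libraries rescaled without mitochondrial genes (adjusted p = 0.0442) and without NCD replicate 2 (adjusted p = 0.0237). Vav1 did not pass in 5 of the 10 fits that leave out 1 library, with an adjusted p of up to 0.0680 without NCD replicate 3, and Plcg1 did not without NCD replicate 1 (0.0564).

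None of 6 tested genes for Kit ligand, cytokine receptors and transcription factors passed in limma, and 2 had an unadjusted p under 0.05. These were Stat5b (0.43, adjusted p = 0.0510) and Il3ra (0.47, adjusted p = 0.101). Stat5b, a transcription factor behind cytokine receptors, was higher in every HCD library than in any NCD library, which held for 4.53% of tested genes. It passed in limma with libraries rescaled without mitochondrial genes (0.58, adjusted p = 0.0213) and after quantile normalization (0.53, adjusted p = 0.0329). Without NCD replicate 2 it passed too (0.47, adjusted p = 0.0498), but in none of the 9 other fits that leave out 1 library. Nor did it pass with libraries rescaled to equal sums (limma adjusted p = 0.103) or with the replicate block (0.120). Il3ra passed without NCD replicate 4 (adjusted p = 0.0334) and in none of the 9 other such fits. Gata2 was at 1.99, 3.04, 4.28, 4.84 and 4.72 FPKM in HCD replicates 1 to 5, against 1.56, 6.00, 1.71, 1.31 and 1.18 FPKM in NCD replicates 1 to 5. NCD replicate 2 was the highest of all and every other NCD library lay below every HCD library. The difference was 0.63 (limma adjusted p = 0.150). With NCD replicate 2 set aside it was 0.93 and passed (adjusted p = 0.0104). Kitl, the ligand of Kit, averaged 0.598 FPKM in HCD and 0.810 in NCD, under the minimum for testing.

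Granule and histamine genes gave no call among 6 tested, and 1 had an unadjusted limma p under 0.05. That was Srgn, the proteoglycan core that packs mast cell proteases and lymphocyte granzymes, at 111 ± 36.1 FPKM in HCD and 65.3 ± 29.2 in NCD (SD, n = 5 each; difference 0.81, limma adjusted p = 0.0501). It passed with libraries rescaled without mitochondrial genes (0.98, adjusted p = 0.0206) and after quantile normalization (1.06, adjusted p = 0.0240). Aoc1, the enzyme that degrades histamine outside cells, averaged 350.4 ± 41.8 FPKM in HCD and 388 ± 30.9 in NCD (adjusted p = 0.395). The histamine receptors Hrh1, Hrh2 and Hrh4 averaged under 1 FPKM.

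Of 3 tested lipid mediator genes 1 rose, Alox5, which starts leukotriene synthesis, at 5.15 ± 1.85 FPKM in HCD and 2.70 ± 0.979 in NCD (SD, n = 5 each; difference 0.73, limma adjusted p = 0.0438). In 7 of the 10 fits without 1 library it did not pass, with an adjusted p of up to 0.112 (without NCD replicate 3), nor after quantile normalization (0.0655). Ltc4s, leukotriene C4 synthase, differed by -0.23 (adjusted p = 0.374). Of 2 tested surface and homing genes 1 rose and 1 fell. Itgb7, an integrin chain of gut-homing lymphocytes and mast cell progenitors, averaged 45.3 ± 10.4 FPKM in HCD and 13.7 ± 7.34 in NCD (1.79, adjusted p = 0.0015). F2rl1, the receptor that tryptase and trypsin cleave, was at 8.09, 13.5, 12, 12.3 and 11.8 FPKM in HCD replicates 1 to 5, against 23.7, 21.3, 32.8, 13.8 and 23.8 FPKM in NCD replicates 1 to 5. All 5 HCD values lay below all 5 NCD values, which held for 12.9% of tested genes, and the difference was -0.91 ± 0.20 (SE, limma adjusted p = 0.00627). F2rl1 is made by epithelial cells too, of whose markers 6 of 9 fell, and their part in its fall was not tested.

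**Figure D4:**
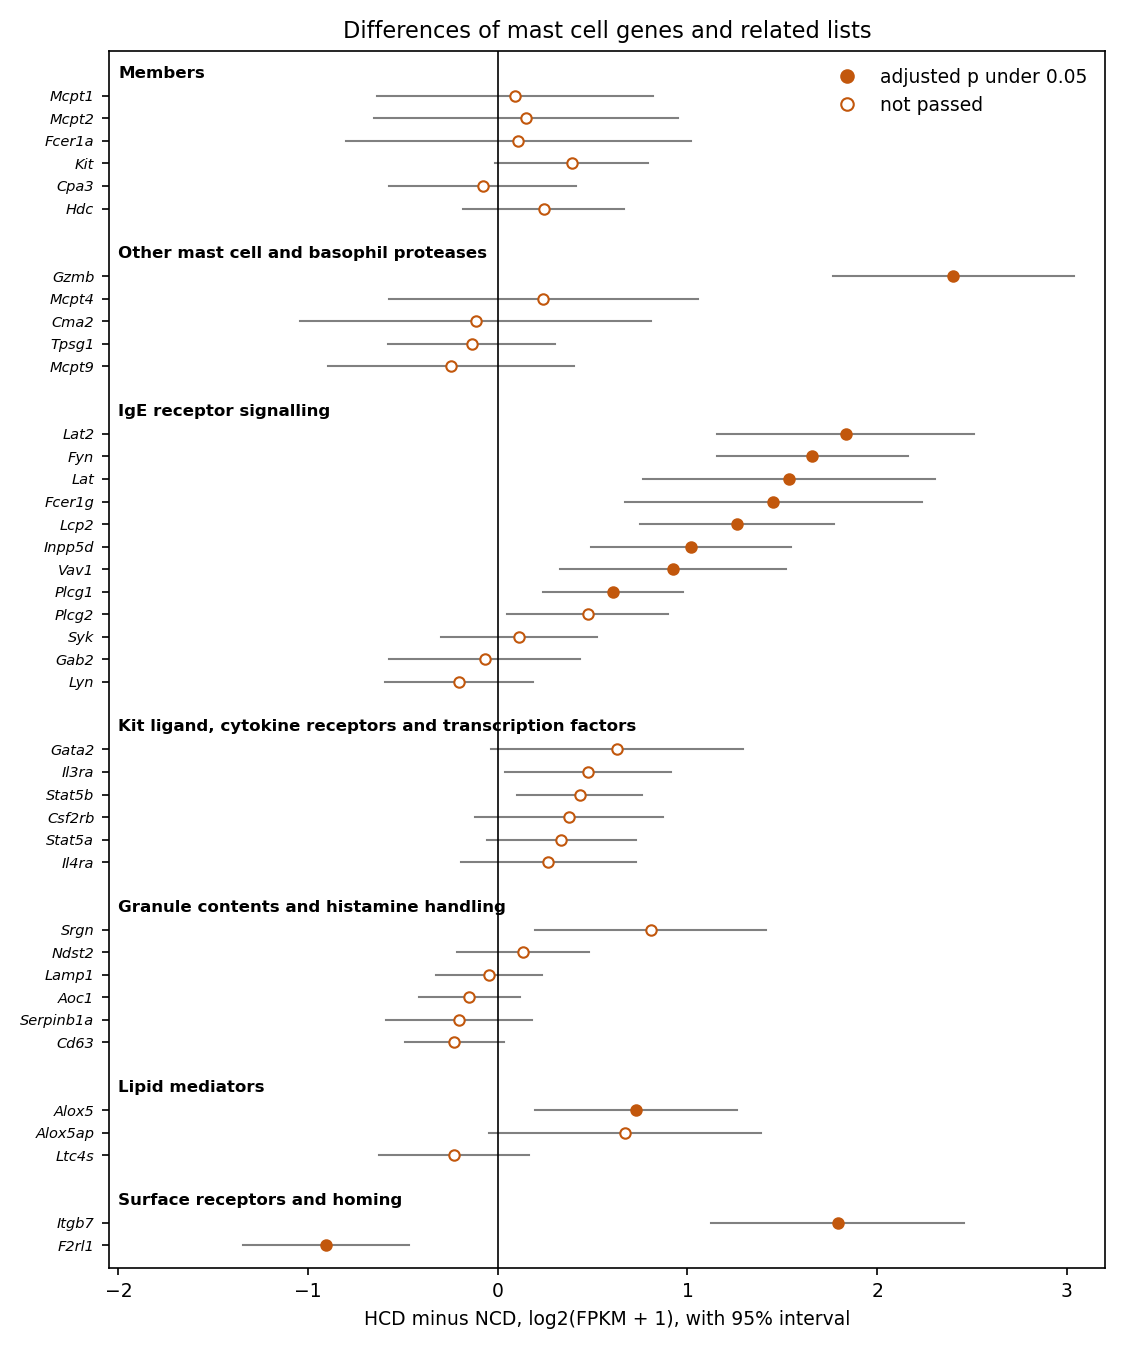
Difference HCD minus NCD in log2(FPKM + 1) with its 95% interval from limma (horizontal axis) for the 6 tested mast cell genes, headed Members, and for the tested genes of the 6 lists (rows), filled where the adjusted p was under 0.05. All 6 intervals of the mast cell genes hold 0, while 8 of 12 IgE receptor signalling genes are filled to the right and F2rl1 is filled to the left.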

How the data were processed

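Per the labels' protocols, TRIzol extraction was followed by poly-T selection of messenger RNA. The deposited FPKM were made by the authors, 1 column per library, and the submitters' processing notes name HISAT2, StringTie, DESeq2, edgeR and GRCm38. The sources used here give no versions, annotation or strand setting. Depth is unknown, so counting intervals are not given. FPKM summed to between 539751 and 634279 per library, and every column was used. The 10321 of 24839 rows that averaged 1 FPKM or more were fitted as log2(FPKM + 1) with limma 3.58.1 in R 4.3.3 (lmFit, eBayes with trend), two-sided, and p-values were adjusted by Benjamini-Hochberg over all these rows. A log2 difference with the pseudocount of 1 understates changes of low genes. The p-values measure the spread between these libraries, which may be technical. Exact and 100000-resample permutation tests used scipy 1.17.1, and sequence alignments Biopython 1.88. The code was tested on simulated data.

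Members and lists were chosen with earlier results of these data known. Named were the 10 genes, listed genes that passed or had up to the 4 smallest p, and the 5 genes most like Mcpt1, and genes beyond this rule were named after their values were seen. Coordinates are from GENCODE M21 and promoters from RefSeq. Alternatives covered the pseudocount, the filter, the scaling, single libraries, runs of library numbers, the replicate block and the variance model.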

Additional observations from a re-analysis of the deposited data

Results flagged for a closer look

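Single libraries stood apart in 14 of 94 groups of 5 libraries examined. The gap to the nearest library was more than 0.71 of the group's range. Chance alone flags about 1 in 20 groups of normally distributed values, which values near 0 are not. Genes of 1 library are not independent. NCD replicate 2 was the library that stood high in 10 of the 14, with 545 FPKM of Mcpt1, 234 of Mcpt2, 24.2 of Mcpt9, 8.54 of Mcpt4, 6.00 of Gata2, 5.11 of Ms4a6b, 3.60 of Bnip2, 7.05 of Vav1, 8.60 of Inpp5d and 0.134 of Cma1. Ms4a6b, Mcpt9 and Bnip2 are among the genes most like Mcpt1, so their flags follow in part from that of Mcpt1. Cma1 was listed at 0 in the other NCD libraries, where any single value above 0 is flagged. In NCD replicate 2 the T cell markers summed to 475 FPKM, inside the NCD range. The macrophage genes Lyz2, Adgre1 and Csf1r were highest among NCD libraries there, while Cd68 and Itgax were not. The part of other leukocytes was not tested. HCD replicate 1 was high in Cma1 (0.253 FPKM) and low in Aoc1 (278 FPKM), HCD replicate 3 was high in Ms4a6b (8.88 FPKM), and NCD replicate 5 was high in Ms4a2 (0.203 FPKM).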

How the results depend on the processing

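None of the mast cell genes tested passed in limma under any of the 20 alternatives, and the lowest adjusted p was 0.0984, for Kit with eBayes without trend. Kit and Hdc kept their direction throughout. Sign changes occurred for Mcpt1, Mcpt2 and Fcer1a among replicates 1 to 3 only (-0.29, -0.24 and -0.50), for Cpa3 with libraries rescaled without mitochondrial genes (0.0199) and among replicates 4 and 5 only (0.15), and in leave-one-out ranges of -0.13 to 0.43 for Mcpt1, -0.10 to 0.51 for Mcpt2, -0.21 to 0.0505 for Cpa3 and -0.25 to 0.41 for Fcer1a. Over all genes 736 were higher and 1982 lower. The lower count was 861 with libraries rescaled without mitochondrial genes and 885 after quantile normalization, where 52.1% and 51.3% of the calls were higher in place of 27.1%. The higher count was 433 with a minimum mean of 5 FPKM, under which Cpa3, Kit, Fcer1a and Hdc gave no value. Replicates 1 to 3 only gave 414 and 1006, and replicates 4 and 5 only 45 and 11. Leaving out 1 library gave 551 to 787 higher and 1319 to 2036 lower, with 1319 without NCD replicate 1. Pairs of Mcpt1 that passed numbered 2, and 1 with a pseudocount of 0.1, after centring on group means, without the 2 libraries farthest from the median of Mcpt1, and among replicates 1 to 3 only, a setting chosen after seeing the data. In these 4 settings Fcer1a did not pass, at r = 0.71, 0.74, 0.35 and 0.89, against 0.74 as reported. After quantile normalization 3 passed, with Hdc (r = 0.72, adjusted p = 0.0304). Cpa3 changed sign against Mcpt1 without the 2 libraries farthest from the median of Mcpt1 (-0.59) and among replicates 1 to 3 only (-0.14). The cause was not tested. Correlations of same-numbered libraries' deviations from the group means ran from -0.24 to 0.22. For HCD replicates 1 and 5 the NCD library of the same number correlated best. Such correlations cannot settle whether the numbers pair samples. The replicate block gave 673 higher and 1620 lower genes and no call among the mast cell genes, and ended the call of Alox5 (limma adjusted p = 0.0783). Unknown depth limits what values near 0 show.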
